A study of Mus musculus with 16 samples.

Results

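Glutamate and GABA receptor genes were followed in RNA sequencing of brain tissue from 16 mice. The set held the protein-coding genes whose symbols match the families Gria, Grid, Grik, Grin, Grm, Gabr and Gabbr, 47 of the 39179 genes in the count table, and its members were taken by symbol. Of the 47, 46 encode receptor subunits and 1, Grid2ip, encodes a protein of Purkinje cell synapses. The counts, medians and values below are those of 42 of the 47 and do not stand for the whole set. Gabra6, which is made almost exclusively in cerebellar granule cells, was kept out of the set and served as a marker of cerebellum. The mice formed 4 groups of 4, namely wild-type (MRPS5 WT) and MRPS5 V338Y mice at 3 and at 19 months of age. V338Y replaces an amino acid of a protein in the small subunit of the mitochondrial ribosome, and the methods describe homozygous C57/BL6 knock-in mice, all female, with cortex as the tissue. The labels say brain, although they also describe an extraction from muscle.

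Glutamate excites neurons through ion channels of the AMPA, NMDA, kainate and delta families, each assembled from several subunits, and through metabotropic receptors that act by way of G proteins. GABA inhibits neurons through GABA-A receptors, which are chloride channels of several subunits, and through GABA-B receptors, which couple to G proteins. The subunits a cell makes set the speed, the calcium permeability and the place of its receptors, and they differ between brain regions, so that cortex and cerebellum use partly different sets.

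The libraries differed in ways that touch every comparison of age. The 10 cerebellum markers, Gabra6 among them, summed to 601 to 1070 CPM (counts scaled to the size of the library, on 1 scale for all 16) in 3-month wild-type mice. In 3-month V338Y mice the sum was 61.0 CPM in mouse 14 and reached 1790 CPM in the others, and in all 8 mice of 19 months it was between 30.1 and 42.8. Gabra6 itself was at 59.9 to 173 CPM in 7 of the 8 mice of 3 months, at 1.41 in mouse 14 and at most 0.490 at 19 months. All 3-month libraries held transcripts of the Y chromosome (Ddx3y, 96.7 to 128 CPM) and little Xist (at most 1.19 CPM), whereas those of 19 months had Xist at 705 to 1182 CPM and no Ddx3y count, which goes against mice of 1 sex. The sample titles of all 19-month mice also end in N, which those of 3 months lack, and its meaning is not given. Age, sex, this difference in titles and the cerebellar share therefore cannot be told apart in the comparisons of age. The 1 exception was mouse 14, a 3-month library with few cerebellar transcripts. It held Ddx3y (107 CPM) like the other 3-month mice, so it does not separate sex from age. Markers of astrocytes summed to 1955 to 2487 CPM at 3 and 3249 to 3627 CPM at 19 months, and endothelial markers to 143 to 161 and 684 to 808 CPM. Interneuron markers went the other way, from 893 to 1032 CPM down to 649 to 707 CPM, while neuron markers overlapped, at 5349 to 6237 and 5602 to 5995 CPM. In such bulk tissue, fewer cells of a type and less RNA per cell cannot be told apart, and the part of these shifts in the results below was not tested except where stated. Mrps5 was at 34.4 to 41.7 CPM at 3 months and at 28.0 to 32.1 CPM at 19 months, a level that does not report on a point mutation. The total count was between 6181448 and 19601664 per mouse.

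Most receptor genes were well measured. Grm6, a receptor of the retina, had no count in any mouse, and Gabrp, Gabrr1, Gabrr3 and Gabre had at most 18 counts in any library. A gene was tested where at least 10 counts were reached in 2 of the 4 mice of a group, which left 37 of the 42 for wild-type mice and 38 for V338Y mice in the comparisons of age. Gabre passed that filter only in comparisons with V338Y mice and Grin3b missed it at 19 months.

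Levels of different genes were compared per kilobase of exon. In 19-month wild-type mice the highest level was that of Gabbr1, the GABA-B subunit that binds GABA, at 80.8 ± 1.77 CPM per kb (SD, n = 4). Among the genes described here it was followed by Gria1 (72.7 ± 1.34), Grm3 (63.8 ± 3.79), Gria2 (49.4 ± 0.685) and Gabbr2 (43.1 ± 0.756). This order depends on the exon lengths, which count every annotated exon of a gene. By mean CPM alone, Gria2 (768 CPM) was above Gabbr1 (627 CPM), Gria1 (440 CPM) and Grm3 (194 CPM) in these mice. The GABA-A subunits described here together came to 132 to 139.7 CPM per kb in 19-month wild-type mice and 141 to 146 at 3 months, the AMPA subunits to 169 to 175 and 175 to 185, and the NMDA subunits to 93.0 to 100.3 and 83.2 to 88.7. Kainate subunits (43.2 to 48.3 and 38.8 to 41.6 CPM per kb) and the delta subunit gene Grid1 (medians 12.9 and 10.6) were less abundant, and rho subunits of the GABA-A family did not pass 0.918 CPM per kb.

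With age, receptor subunits moved in both directions, and in wild-type mice every family with more than 1 gene called held both rises and falls. In wild-type mice 26 of the 37 genes tested changed between 3 and 19 months, 17 higher and 9 lower at 19 months (edgeR quasi-likelihood test, Benjamini-Hochberg adjusted p under 0.05 over all genes). The background was high, as 62.8% of all 16101 genes tested were called, 31.4% higher and 31.5% lower, so that the count by itself says little about receptors. In V338Y mice 16 of 38 were called, 9 higher and 7 lower, against 48.8% of 16770 genes (23.1% higher, 25.7% lower). The groups did not overlap for 22 genes of wild-type and 13 of V338Y mice, beside 55.4% and 44.1% of all genes. The median log2 fold change of the receptor genes was 0.12 in wild-type mice and 0.07 in V338Y ones, beside -0.0050 and -0.03 over all genes, here and below as 19 over 3 months. Scaling by library size alone lowered the median of all genes to -0.10 and -0.09 and moved the split to 14 higher and 16 lower in wild-type and to 8 higher and 11 lower in V338Y mice, and under it Grin1, Grik3 and Grm5 were no longer called in wild-type mice, nor Grm7 in V338Y mice. The V338Y count without 1 mouse at a time was 11 to 20, and the number lower at 19 months fell from 7 to 3 without mouse 19 and to 4 without mouse 17, 18 or 20.

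**Figure D1:**
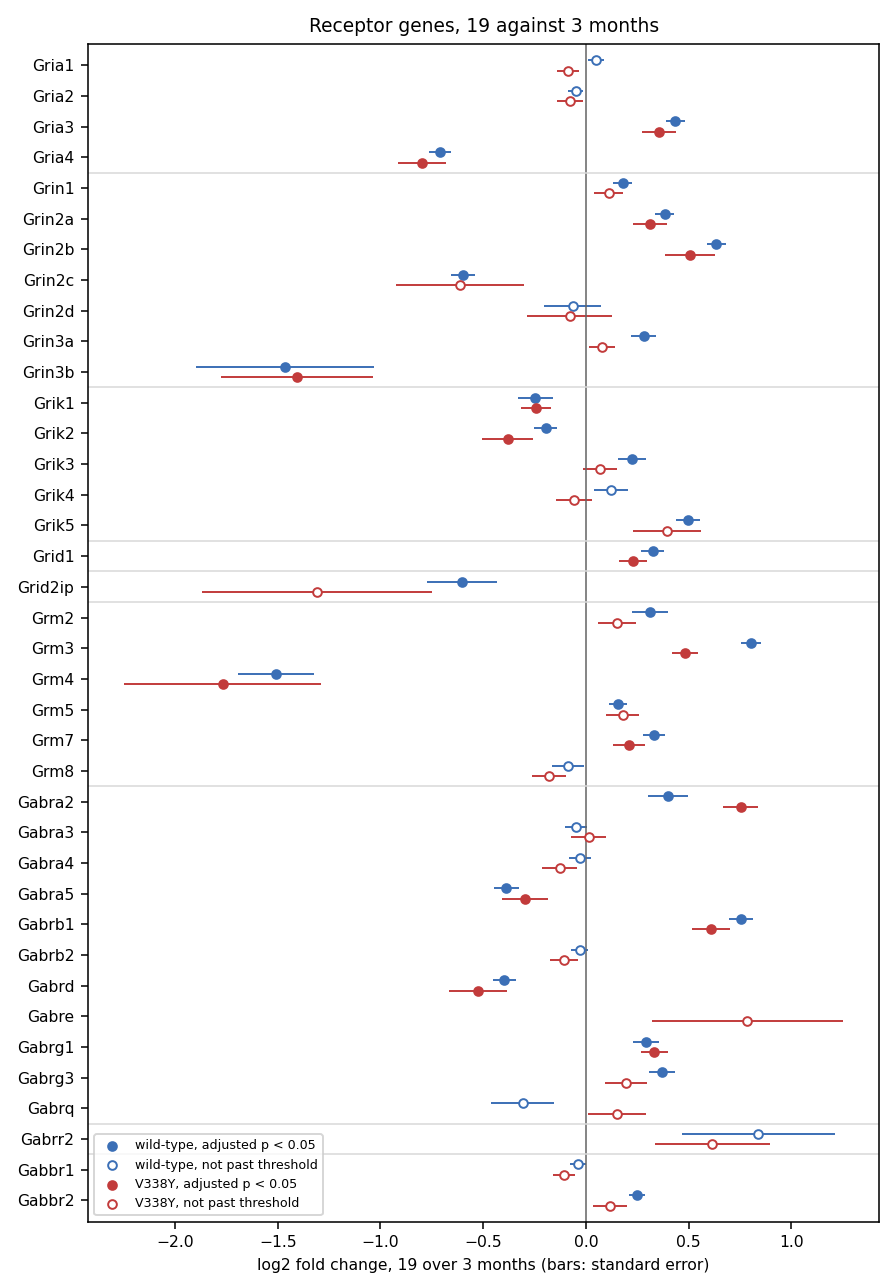
Log2 fold change (x axis, 19 over 3 months) with its standard error for the receptor genes tested (y axis, grouped by family), in wild-type (blue) and V338Y mice (red), 4 mice per group. Filled points passed an adjusted p of 0.05 (26 blue, 16 red). Each family of at least 2 genes tested holds genes on both sides of 0, and the longest falls are those of Grm4, Grin3b and Grid2ip.

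The 5 genes known for expression in cerebellum, Grm4, Grid2ip, Grin2c, Gabrd and Gria4, were taken as a group. All 5 were lower at 19 months in wild-type mice, with a median log2 fold change of -0.60, and 3 were called lower in V338Y mice, with a median of -0.80. Of the other genes, 17 were higher and 4 lower in wild-type and 9 higher and 4 lower in V338Y mice, with medians of 0.20 and 0.12. Beside them, all 10 cerebellum markers were called lower at 19 months in both genotypes. The shares of all genes tested were 31.4% higher and 31.5% lower in wild-type mice, and 23.1% and 25.7% in V338Y mice. The receptor genes and marker lists were chosen with earlier results of these data known.

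Grm4 encodes mGlu4, a presynaptic glutamate receptor that is strong on the parallel fibres of cerebellar granule cells (ENSMUSG00000063239, chr17:27422387-27521403, minus strand). At 3 months, Grm4 stood at 56.2, 95.5, 88.7 and 93.1 CPM in wild-type mice 9 to 12 and at 114, 31.7, 159 and 104 CPM in V338Y mice 13 to 16. At 19 months the levels were 28.1, 29.4, 29.2 and 31.8 CPM in wild-type mice 12 to 15 and 30.8, 30.6, 29.4 and 30.2 CPM in V338Y mice 17 to 20. The young mice spread over a wide range, the old mice hardly varied, and mouse 14 with 31.7 CPM sat with the old mice rather than with the other 7 young ones. The log2 fold change was -1.51 ± 0.18 (SE, adjusted p = 0.000371) in wild-type and -1.77 ± 0.48 (SE, adjusted p = 0.0228) in V338Y mice. The V338Y call was lost without mouse 13, 17, 18, 19 or 20 (log2 fold change -1.69 to -1.78, adjusted p = 0.0541 to 0.0589), and without mouse 14 the value was -2.06 (adjusted p = 3.89e-06).

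Grid2ip, whose product is known from the synapses of Purkinje cells, differed by -0.60 ± 0.17 (SE, adjusted p = 0.00277) in wild-type and -1.31 ± 0.56 (SE, adjusted p = 0.0949) in V338Y mice. The wild-type call was lost when all 16 mice were fitted together (-0.61, adjusted p = 0.302). Its level in mouse 14 (3.07 CPM) was below all 8 mice of 19 months.

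Grin2c encodes GluN2C, the NMDA subunit of mature cerebellar granule cells (ENSMUSG00000020734, chr11:115249169-115267243, minus strand). Grin2c was measured at 93.5, 119, 107 and 109 CPM in young wild-type and 135, 52.7, 148 and 116 CPM in young V338Y mice, in the order of mouse numbers. The old mice had 70.7, 68.9, 73.7 and 68.3 CPM (wild-type) and 72.5, 73.8, 74.6 and 75.8 CPM (V338Y). Mouse 14 was below every mouse of 19 months, while the other 7 young mice were above all of them. The wild-type log2 fold change was -0.60 ± 0.059 (SE, adjusted p = 6.96e-10). That of V338Y mice, -0.61 ± 0.31 (SE, adjusted p = 0.151), missed the threshold with mouse 14 and was -0.84 (adjusted p = 1.96e-07) without it.

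The AMPA subunit gene Gria4 (GluA4; ENSMUSG00000025892, chr9:4417896-4796234, minus strand) was apart in age in both genotypes. In mice of 3 months its level was 216, 242, 263 and 269 CPM for wild-type and 251, 179.9, 277 and 251 CPM for V338Y. In mice of 19 months it was 153, 151, 142 and 155 CPM for wild-type and 142, 140.1, 139.8 and 133 CPM for V338Y. Every young mouse was above every old mouse, and mouse 14 was the lowest of the young. Its log2 fold changes were -0.71 ± 0.055 (SE, adjusted p = 1.27e-10) and -0.80 ± 0.12 (SE, adjusted p = 0.000371) in wild-type and V338Y mice. Gabrd, the delta subunit of extrasynaptic GABA-A receptors in granule cells and dentate gyrus, differed by -0.40 ± 0.057 (SE, adjusted p = 4.61e-07) and -0.53 ± 0.14 (SE, adjusted p = 0.0126), with mouse 14 (66.6 CPM) inside the old range.

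**Figure D2:**
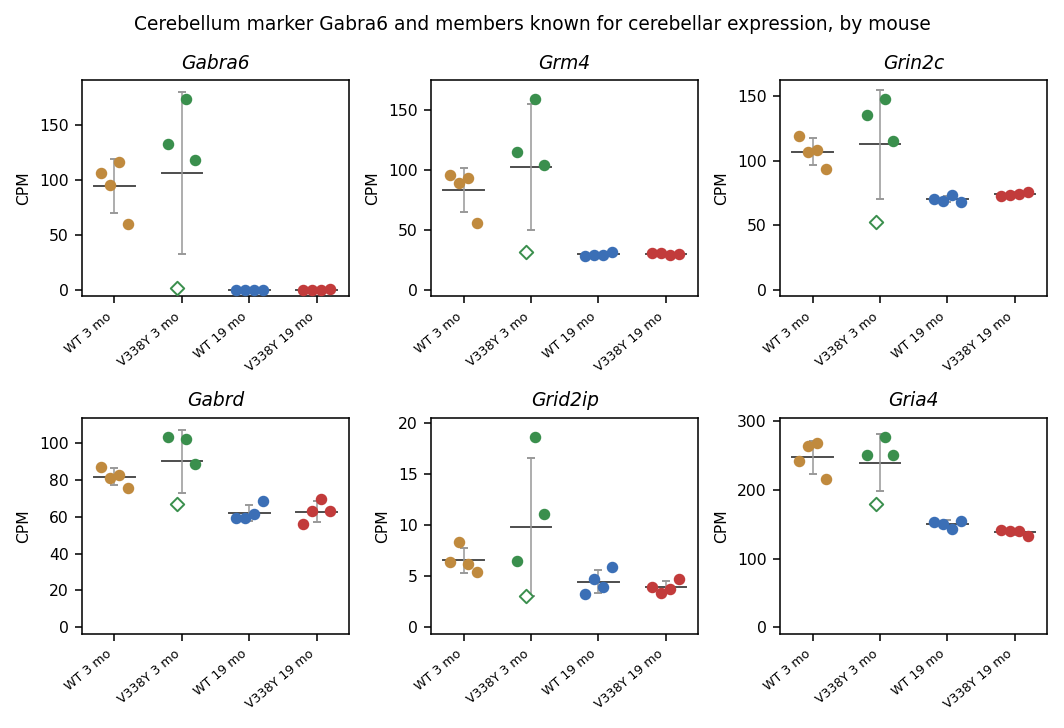
Expression in CPM (y axes, from 0) of the marker Gabra6 and 5 genes of the set known for cerebellar expression, 1 point per mouse in the 4 groups, with the group mean (line) and SD (bar); the open diamond is mouse 14. Gabra6 is near 0 in mouse 14 and at 19 months, and for Grm4 mouse 14 (31.7 CPM) lies among the 19-month mice.

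Mouse 14 was then set against all genes that had been called in wild-type mice, a comparison in which it took no part. Of the 17 receptor genes higher at 19 months, it lay below all 8 old mice for 9 (Gabra2, Gabrb1, Gabrg1, Gria3, Grik5, Grin1, Grin2a, Grin2b and Grm3) and within their range for 8 (Gabbr2, Gabrg3, Grid1, Grik3, Grin3a, Grm2, Grm5 and Grm7). Of the 9 lower genes, it lay above all old mice for 4 (Gabra5, Gria4, Grik1 and Grin3b), within their range for 3 (Gabrd, Grik2 and Grm4) and below it for 2 (Grid2ip and Grin2c). Over all genes called in wild-type mice, the level of mouse 14 was on the young side of all old mice for 82.1% of the 5050 higher and 83.7% of the 5065 lower genes. The difference between these shares and those of the receptor genes was not tested. The cerebellum score, the mean log2 CPM of the cerebellum markers, was 1.86 in mouse 14 and 5.93 to 6.37 in the other young V338Y mice. Old V338Y mice had 0.631 to 0.980, so a fit with this score separates it from age mainly through mouse 14. With the score as a covariate, 8 receptor genes were called in V338Y mice, beside 27.6% of all genes. Of these, Gabra2 (0.47), Gabrb1 (0.69), Gabre (2.74) and Grin2c (0.87) were higher and Gabra3 (-0.33), Gabra4 (-0.51), Gabra5 (-0.76) and Grm8 (-0.44) lower at 19 months. Gabre, Grin2c, Gabra3, Gabra4 and Grm8 were not called without the covariate. Among the 3-month mice, mouse 14 was the lowest for Gabre and Grin2c and the highest for Gabra3, Gabra4 and Grm8. Of the V338Y calls, those of Gabra2, Gabrb1 and Gabra5 stayed, and those of all other genes were lost, among them Grin2b (0.31, adjusted p = 0.401), Grin2a (0.23, adjusted p = 0.302), Gria3 (0.19, adjusted p = 0.335) and Grm3 (0.24, adjusted p = 0.0699). In wild-type mice, 2 were called, Grm3 (2.31) and Grm4 (3.30), beside 0.671% of all genes. Their score was 5.08 to 5.84 at 3 months and 0.449 to 0.813 at 19 months. The ages thus did not overlap in the score in either genotype, and no young wild-type mouse came near the old ones.

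**Figure D3:**
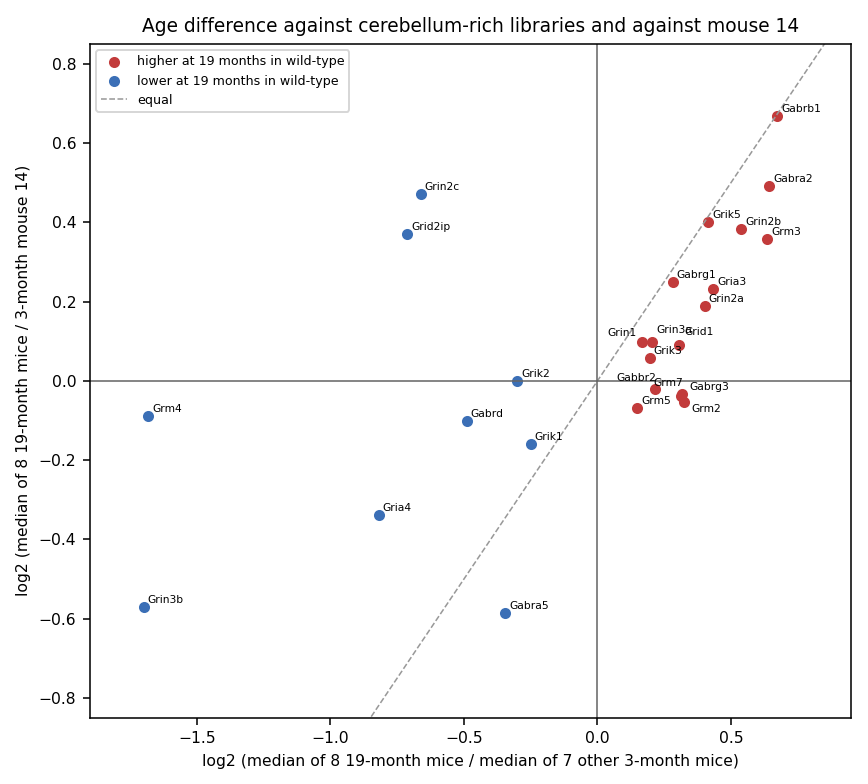
Log2 ratio of the median of the 8 19-month mice to the median of 7 3-month mice (x axis) and to 3-month mouse 14 (y axis) for the 26 receptor genes called in wild-type mice, with the line of equal ratios dashed. Gabrb1, Grin2b, Grm3 and Gabra5 keep their direction against mouse 14, whereas Grm4 and Grik2 are near 0, Grin2c and Grid2ip cross it, and Gabbr2, Gabrg3, Grm2, Grm5 and Grm7 lie between -0.068 and -0.020 against mouse 14.

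NMDA receptors pair the obligatory subunit GluN1 with GluN2 or GluN3 subunits. Of the 7 genes, 4 rose and 2 fell in wild-type mice, beside 31.4% and 31.5% of all genes. In V338Y mice 2 of the 7 rose and 1 fell, beside 23.1% and 25.7% of all genes. Grin2b, whose product GluN2B dominates early in life and gives slow currents (ENSMUSG00000030209, chr6:135713233-136173511, minus strand), had the largest rise among them. Young wild-type mice had 594, 532, 602 and 555 CPM and young V338Y mice 439, 661, 643 and 601 CPM of Grin2b. Old wild-type mice had 818, 889, 889 and 924 CPM and old V338Y mice 787, 819.7, 835 and 909.5 CPM of Grin2b. All old mice exceeded all young ones, mouse 14 (661 CPM) being the highest of the young. Grin2b rose by 0.64 ± 0.045 (SE, adjusted p = 3.28e-13) in wild-type and 0.51 ± 0.12 (SE, adjusted p = 0.00585) in V338Y mice.

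Grin2a encodes GluN2A, the faster subunit that joins as synapses mature (ENSMUSG00000059003, chr16:9567898-9995560, minus strand). At 3 months, Grin2a stood at 120.2, 116, 128 and 116 CPM in wild-type mice 9 to 12 and at 112, 139, 146 and 125 CPM in V338Y mice 13 to 16. At 19 months the levels were 147, 159, 158 and 159 CPM in wild-type mice 12 to 15 and 158, 159, 170.1 and 165 CPM in V338Y mice 17 to 20. Again the ages were apart in both genotypes. The rise was 0.38 ± 0.047 (SE, adjusted p = 2.63e-08) and 0.31 ± 0.082 (SE, adjusted p = 0.00751), smaller than that of Grin2b, and the within-library log2 ratio of Grin2a to Grin2b per kilobase was -1.78 ± 0.045 (SD, n = 4) in young and -2.03 ± 0.028 in old wild-type mice. In V338Y mice the ratio was -1.69 ± 0.14 and -1.89 ± 0.074. Both differences had the smallest p that an exact permutation test of 4 against 4 mice allows, 0.0286, as had that between the genotypes at 19 months, and none passed adjustment over 12 ratio tests (adjusted p = 0.114).

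Among the remaining NMDA genes, Grin1 was 0.18 ± 0.046 (SE, adjusted p = 0.00120) in wild-type and 0.11 ± 0.072 (SE, adjusted p = 0.225) in V338Y mice, and Grin3a 0.28 ± 0.060 (SE, adjusted p = 0.000154) and 0.08 ± 0.064 (SE, adjusted p = 0.325). Grin1 shares 13.5% of its exon length with the antisense gene Grin1os, and whether the counting used strand is not given in the sources used here. Grin3b fell by 1.47 and 1.41 on the log2 scale, called in both genotypes (adjusted p = 0.00421 and 0.00721), but at no more than 1.41 CPM and with 32.1% of its exon length overlapping Tmem259 on the other strand. Grin2d, found mainly in interneurons and midline structures, was not called (-0.06 and -0.08).

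Of the 4 AMPA genes, Gria3 rose, Gria4 fell and the main pair Gria1 and Gria2 did not pass the threshold. Gria1 encodes GluA1 (ENSMUSG00000020524, chr11:57011387-57330244, plus strand). Gria1 was measured at 421, 431, 426 and 434 CPM in young wild-type and 442, 449, 479 and 444 CPM in young V338Y mice, in the order of mouse numbers. The old mice had 429, 441, 440.5 and 448 CPM (wild-type) and 427, 429, 429.8 and 433 CPM (V338Y). The wild-type ages overlapped, while in V338Y mice every old mouse was just below every young one. With log2 fold changes of 0.05 ± 0.038 (SE, adjusted p = 0.263) and -0.09 ± 0.055 (SE, adjusted p = 0.207), neither genotype passed.

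GluA2, from Gria2, makes AMPA receptors impermeable to calcium (ENSMUSG00000033981, chr3:80681450-80802835, minus strand). In mice of 3 months its level was 789.6, 806, 787 and 821 CPM for wild-type and 713, 854, 722 and 803 CPM for V338Y. In mice of 19 months it was 765, 765, 758 and 783 CPM for wild-type and 733, 752, 749.7 and 715 CPM for V338Y. Old wild-type mice were narrowly below young ones, and V338Y mice overlapped. The log2 fold change was -0.05 ± 0.038 (SE, adjusted p = 0.242) and -0.08 ± 0.063 (SE, adjusted p = 0.337). As a share of the 4 AMPA subunits per kilobase, Gria2 made up 28.5% ± 0.60 (SD, n = 4) in young and 28.8% ± 0.21 in old wild-type mice. In V338Y mice it made up 27.3% ± 2.71 and 28.7% ± 0.55. No difference passed an exact permutation test (p = 0.371 to 0.8 over the 4 comparisons). The size of the share depends on the exon lengths used, 15548 bp for Gria2 and 6043 bp for Gria1. By CPM alone Gria2 was above Gria1 in every group.

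Gria3, on the X chromosome, encodes GluA3 (ENSMUSG00000001986, chrX:41400854-41678601, plus strand). Young wild-type mice had 201, 184, 199.5 and 171 CPM and young V338Y mice 164, 211, 205 and 182 CPM of Gria3. Old wild-type mice had 248, 261, 247 and 256 CPM and old V338Y mice 235, 248, 241 and 258 CPM of Gria3. All 8 old mice were above all 8 young mice, mouse 14 included. It rose by 0.44 ± 0.047 (SE, adjusted p = 2.50e-09) in wild-type and 0.36 ± 0.081 (SE, adjusted p = 0.00293) in V338Y mice.

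**Figure D4:**
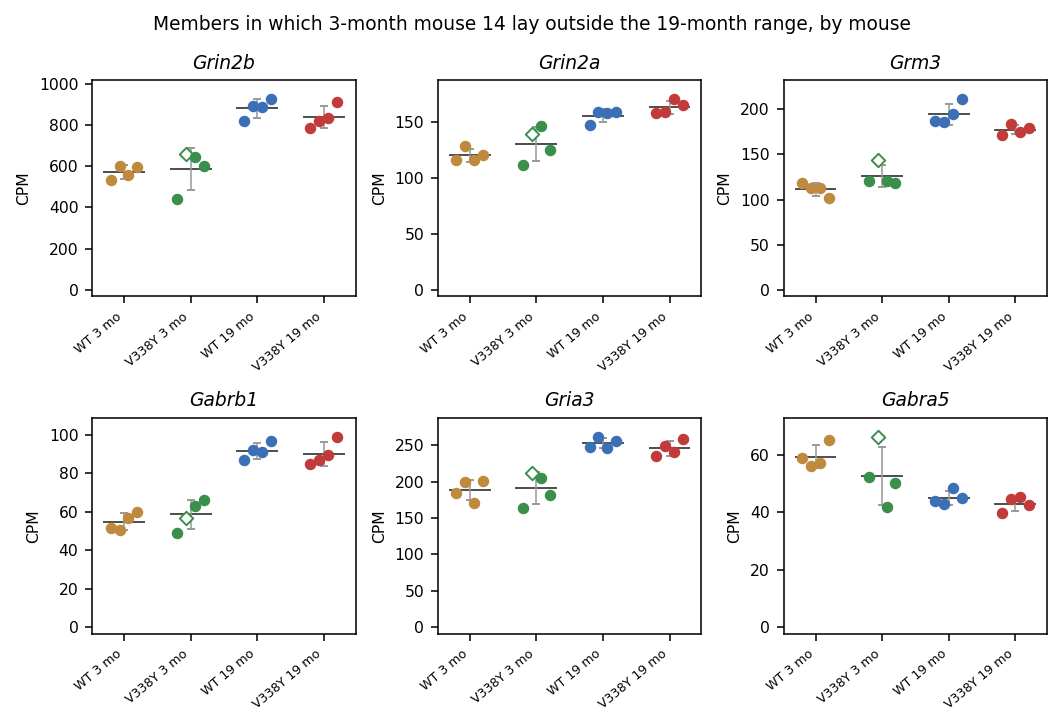
Expression in CPM (y axes, from 0) of 6 receptor genes for which 3-month mouse 14 (open diamond) lay outside the range of the 19-month mice, 1 point per mouse, with the group mean (line) and SD (bar). Grin2b, Grin2a, Grm3, Gabrb1 and Gria3 are higher and Gabra5 lower at 19 months; only for Gabra5 do V338Y mice of the 2 ages overlap.

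Kainate receptors modulate release and excitability. Of their 5 genes, 4 were called in wild-type and 2 in V338Y mice, beside 62.8% and 48.8% of all genes. In wild-type mice Grik3 and Grik5 rose and Grik1 and Grik2 fell, and in V338Y mice Grik1 (-0.24 ± 0.073 (SE, adjusted p = 0.0153)) and Grik2 (-0.38 ± 0.12 (SE, adjusted p = 0.0286)) were the 2 that passed. Grik1 lost its call without V338Y mouse 18 (-0.21, adjusted p = 0.0547) or 19 (-0.23, adjusted p = 0.0502) and, in wild-type mice, without mouse 14 of 19 months (-0.19, adjusted p = 0.0813). Grik2 lost its V338Y call without mouse 17, 19 or 20 (-0.35 to -0.39, adjusted p = 0.0536 to 0.0742), and its wild-type call in the fit of all 16 mice (-0.20, adjusted p = 0.104). Grik5 encodes the high-affinity subunit GluK5 (ENSMUSG00000003378, chr7:25009849-25072346, minus strand). At 3 months, Grik5 stood at 77.1, 70.7, 78.97 and 67.3 CPM in wild-type mice 9 to 12 and at 58.05, 77.9, 103 and 82.5 CPM in V338Y mice 13 to 16. At 19 months the levels were 96.7, 111, 103 and 99.2 CPM in wild-type mice 12 to 15 and 97.7, 102, 105 and 119 CPM in V338Y mice 17 to 20. Wild-type ages did not overlap, whereas V338Y mouse 15 of 3 months reached the old range. The log2 fold change was 0.50 ± 0.057 (SE, adjusted p = 7.37e-09) in wild-type and 0.39 ± 0.17 (SE, adjusted p = 0.0833) in V338Y mice. Grid1, the delta subunit gene of forebrain, rose by 0.32 ± 0.056 (SE, adjusted p = 9.37e-06) and 0.23 ± 0.068 (SE, adjusted p = 0.0136).

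The largest rise among the genes called in wild-type mice was that of a metabotropic glutamate receptor gene, Grm3. In V338Y mice Gabra2, Gabrb1 and Grin2b rose by more than Grm3. Counts of metabotropic genes follow. Of the 6 genes tested, 4 rose and 1 fell in wild-type mice, beside 31.4% and 31.5% of all genes. In V338Y mice 2 of the 6 rose and 1 fell, beside 23.1% and 25.7% of all genes. Grm3 encodes mGlu3, which is made by astrocytes as well as neurons (ENSMUSG00000003974, chr5:9485541-9725170, minus strand). Grm3 was measured at 102, 119, 113 and 113 CPM in young wild-type and 120.5, 144, 120.1 and 119 CPM in young V338Y mice, in the order of mouse numbers. The old mice had 186, 186, 194 and 211 CPM (wild-type) and 172, 183, 174 and 178 CPM (V338Y). Young and old mice were far apart in both genotypes, and mouse 14 was the highest of the young. Grm3 rose by 0.80 ± 0.050 (SE, adjusted p = 1.21e-14) in wild-type and 0.48 ± 0.065 (SE, adjusted p = 6.92e-05) in V338Y mice, beside a rise of 6 of 7 astrocyte markers in each genotype (median log2 fold change 0.90 and 0.82). The presynaptic receptor gene Grm7 rose by 0.33 ± 0.054 (SE, adjusted p = 4.11e-06) and 0.21 ± 0.077 (SE, adjusted p = 0.0382), although the V338Y call was lost without any 1 mouse other than mouse 14 (0.17 to 0.23, adjusted p = 0.0522 to 0.108). Grm2 and Grm5 were called in wild-type mice (0.31 and 0.16, the latter not in the fit of all 16 mice, where its adjusted p was 0.0755) and had log2 fold changes of 0.15 and 0.18 in V338Y mice, where they were not called. Grm8 was called in neither (-0.09 and -0.18).

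GABA-A receptors most often combine alpha, beta and gamma subunits. Of 10 genes tested in wild-type mice, 4 rose and 2 fell, beside 31.4% and 31.5% of all genes. Of 11 in V338Y mice, 3 rose and 2 fell, beside 23.1% and 25.7% of all genes. Gabrb2, the gene of the beta2 subunit, was not called (-0.03 and -0.11).

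Alpha2 receptors sit on the initial segment of axons, and Gabra2 (ENSMUSG00000000560, chr5:70957597-71095849, minus strand) was higher in old mice. In mice of 3 months its level was 26.4, 32.4, 22.1 and 24.95 CPM for wild-type and 22.5, 26.6, 19.3 and 23.9 CPM for V338Y. In mice of 19 months it was 33.6, 32.3, 35.7 and 39.4 CPM for wild-type and 36.5, 42.2, 38.2 and 39.8 CPM for V338Y. V338Y mice of the 2 ages were apart, and in wild-type mice the ranges touched, mouse 10 of 3 months (32.4 CPM) being level with mouse 13 of 19 months (32.3 CPM). The rise was 0.40 ± 0.098 (SE, adjusted p = 0.00153) in wild-type and 0.75 ± 0.085 (SE, adjusted p = 1.63e-05) in V338Y mice. The difference between these rises did not pass the interaction test over all genes (adjusted p = 0.407).

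Gabra3, on the X chromosome (ENSMUSG00000031343, chrX:72432681-72656848, minus strand), did not pass the test of age. Young wild-type mice had 89.2, 78.4, 84.8 and 82.7 CPM and young V338Y mice 77.2, 94.9, 68.8 and 77.1 CPM of Gabra3. Old wild-type mice had 81.9, 78.7, 84.5 and 74.7 CPM and old V338Y mice 74.9, 79.5, 84.00 and 83.9 CPM of Gabra3. Young and old mice overlapped in both genotypes, with log2 fold changes of -0.05 ± 0.053 (SE, adjusted p = 0.453) and 0.01 ± 0.083 (SE, adjusted p = 0.914).

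Alpha5 receptors are extrasynaptic and strong in hippocampus and deep cortex, and Gabra5 (ENSMUSG00000055078, chr7:57407672-57510059, minus strand) was lower in old mice. At 3 months, Gabra5 stood at 65.2, 58.9, 56.01 and 57.1 CPM in wild-type mice 9 to 12 and at 52.3, 66.2, 41.7 and 50.01 CPM in V338Y mice 13 to 16. At 19 months the levels were 43.7, 43.01, 48.3 and 44.8 CPM in wild-type mice 12 to 15 and 39.7, 44.4, 45.3 and 42.4 CPM in V338Y mice 17 to 20. Mouse 14 had the highest level of all 16 mice, and V338Y mouse 15 of 3 months fell into the old range. Gabra5 differed by -0.39 ± 0.061 (SE, adjusted p = 2.44e-06) in wild-type and -0.30 ± 0.11 (SE, adjusted p = 0.0454) in V338Y mice, and without mouse 14 the V338Y value was -0.16 (adjusted p = 0.114). That call was also lost without any 1 of the other V338Y mice except mouse 15 (-0.26 to -0.32, adjusted p = 0.0636 to 0.114), and with other size factors or filters on low counts (-0.28 to -0.31, adjusted p = 0.0547 to 0.0663).

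Gabra4 and Gabrb1 lie head to head on chromosome 5, and their annotated genes overlap by 196 bp at the starts. They are shown because 1 of the pair rose while the other did not pass the test. The windows run from 250 bases before to 50 bases after each RefSeq start (GRCm38.p6), with every CG in capitals. They are chr5:71658259-71658558 on the minus strand for Gabra4 and chr5:71657671-71657970 on the plus strand for Gabrb1. The RefSeq start of Gabrb1 differs from the annotated gene start used for the overlap, chr5:71658113, and its window ends before that position.
Gabra4: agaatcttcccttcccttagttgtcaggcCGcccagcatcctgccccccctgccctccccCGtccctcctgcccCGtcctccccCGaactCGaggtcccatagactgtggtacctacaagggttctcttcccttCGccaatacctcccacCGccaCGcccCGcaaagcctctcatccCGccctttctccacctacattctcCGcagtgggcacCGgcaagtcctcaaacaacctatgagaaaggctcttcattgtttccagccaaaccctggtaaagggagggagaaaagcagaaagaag
Gabrb1: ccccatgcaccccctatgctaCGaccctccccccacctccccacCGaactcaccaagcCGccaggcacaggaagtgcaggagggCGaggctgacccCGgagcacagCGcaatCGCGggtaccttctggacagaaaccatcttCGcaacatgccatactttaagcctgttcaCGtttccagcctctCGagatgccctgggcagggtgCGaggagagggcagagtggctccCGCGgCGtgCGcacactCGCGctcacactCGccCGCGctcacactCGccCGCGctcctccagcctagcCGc
The window of Gabra4 holds 12 CG and that of Gabrb1 25, beside a median of 7 over the 32851 windows of the table, in which 39.6% and 18.4% hold at least as many. The letters TATAAA, searched on both strands, are in neither window and in 13.6% of all windows. Such a match is a description of the sequence and no site.

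Gabrb1 encodes beta1 (ENSMUSG00000029212, chr5:71658113-72149037, plus strand). Gabrb1 was measured at 60.2, 51.8, 50.9 and 56.7 CPM in young wild-type and 49.1, 56.9, 62.9 and 66.2 CPM in young V338Y mice, in the order of mouse numbers. The old mice had 86.99, 92.3, 91.1 and 96.97 CPM (wild-type) and 84.8, 86.8, 89.7 and 99.1 CPM (V338Y). Old mice were above young mice without overlap in both genotypes, and mouse 14 (56.9 CPM) was in the middle of the young. Gabrb1 rose by 0.76 ± 0.057 (SE, adjusted p = 9.56e-13) in wild-type and 0.61 ± 0.092 (SE, adjusted p = 0.000212) in V338Y mice.

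Gabra4, whose alpha4 subunit forms extrasynaptic receptors with delta (ENSMUSG00000029211, chr5:71569749-71658308, minus strand), shares 46 bp of exon with Gabrb1. In mice of 3 months its level was 111, 121, 108 and 116 CPM for wild-type and 116, 149.7, 109 and 114 CPM for V338Y. In mice of 19 months it was 115, 108, 104 and 120.3 CPM for wild-type and 113, 114, 116 and 107 CPM for V338Y. The ages overlapped in both genotypes. Its log2 fold change was -0.03 ± 0.052 (SE, adjusted p = 0.648) in wild-type and -0.13 ± 0.085 (SE, adjusted p = 0.234) in V338Y mice.

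Gabrg1, at the other end of the same cluster (ENSMUSG00000001260, chr5:70751047-70842617, minus strand), encodes gamma1. Young wild-type mice had 47.5, 42.4, 45.02 and 45.9 CPM and young V338Y mice 41.5, 46.1, 37.6 and 45.3 CPM of Gabrg1. Old wild-type mice had 57.4, 51.9, 50.6 and 59.98 CPM and old V338Y mice 55.9, 53.9, 50.96 and 55.6 CPM of Gabrg1. Here too old mice were above young mice without overlap. The rise was 0.29 ± 0.063 (SE, adjusted p = 0.000191) and 0.33 ± 0.066 (SE, adjusted p = 0.00122), so that Gabrg1, Gabra2 and Gabrb1 rose on chromosome 5 and Gabra4 between them did not pass. On chromosome 7, Gabrg3 rose in wild-type mice (0.37 ± 0.063 (SE, adjusted p = 6.19e-06)) while Gabra5 fell.

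The GABA-B receptor needs both of its subunits. Gabbr2 rose in wild-type mice (0.25 ± 0.041 (SE, adjusted p = 4.15e-06)) and was 0.12 ± 0.083 (SE, adjusted p = 0.253) in V338Y mice, and Gabbr1 was not called (-0.04 and -0.11). The rho subunit gene Gabrr2 had at most 27 counts in a library and was not called (0.84 and 0.62).

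Between the genotypes no receptor gene passed the threshold. At 19 months 0 of 37 were called by edgeR and by DESeq2, beside 3.14% of 16420 genes, and 4 had an unadjusted p under 0.05 (Grm3, Gria4, Gabra2 and Gabrg3) beside 16.2% of all genes. At 3 months 0 of 38 were called by both tools, beside 0.0616% of 16241 genes, and 2 had an unadjusted p under 0.05 (Gabrq and Grm3) beside 5.02%. Among the 33 genes whose mean count over all 16 mice, not normalized, was 100 or more, the log2 fold change, V338Y over wild-type, was between -0.13 (Grm3) and 0.23 (Grin2d) at 19 months, with a median standard error of 0.049. At 3 months it was between -0.19 (Gabra2) and 0.29 (Grm4), with a median standard error of 0.084. The cerebellar share varied in this comparison too, with marker sums of 601 to 1070 CPM in wild-type and 61.0 to 1790 CPM in V338Y mice. Without mouse 14, the edgeR value of Grm4 was 0.60 (adjusted p = 0.502).

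Grm3, with values by mouse given above, was the closest to the threshold. At 19 months the highest V338Y mouse, mouse 18 with 183 CPM, was below the lowest wild-type value of 186 CPM, and such groups without overlap made up 9.32% of all genes. The log2 fold change was -0.13 ± 0.041 (SE, adjusted p = 0.0811), and without wild-type mouse 12 it was -0.15 (adjusted p = 0.0441). At 3 months it was 0.18 ± 0.073 (SE, adjusted p = 0.926), with mouse 14 highest. The corresponding values at 19 months were -0.12 ± 0.040 (SE, adjusted p = 0.121) for Gria4, 0.17 ± 0.065 (SE, adjusted p = 0.157) for Gabra2 and -0.12 ± 0.054 (SE, adjusted p = 0.265) for Gabrg3. Slc1a3, the glutamate transporter of astrocytes and itself one of the astrocyte markers, was called at 19 months (-0.17, adjusted p = 0.0112). It was the only 1 of the 7 astrocyte markers called there, and their median log2 fold change was -0.07.

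**Figure D5:**
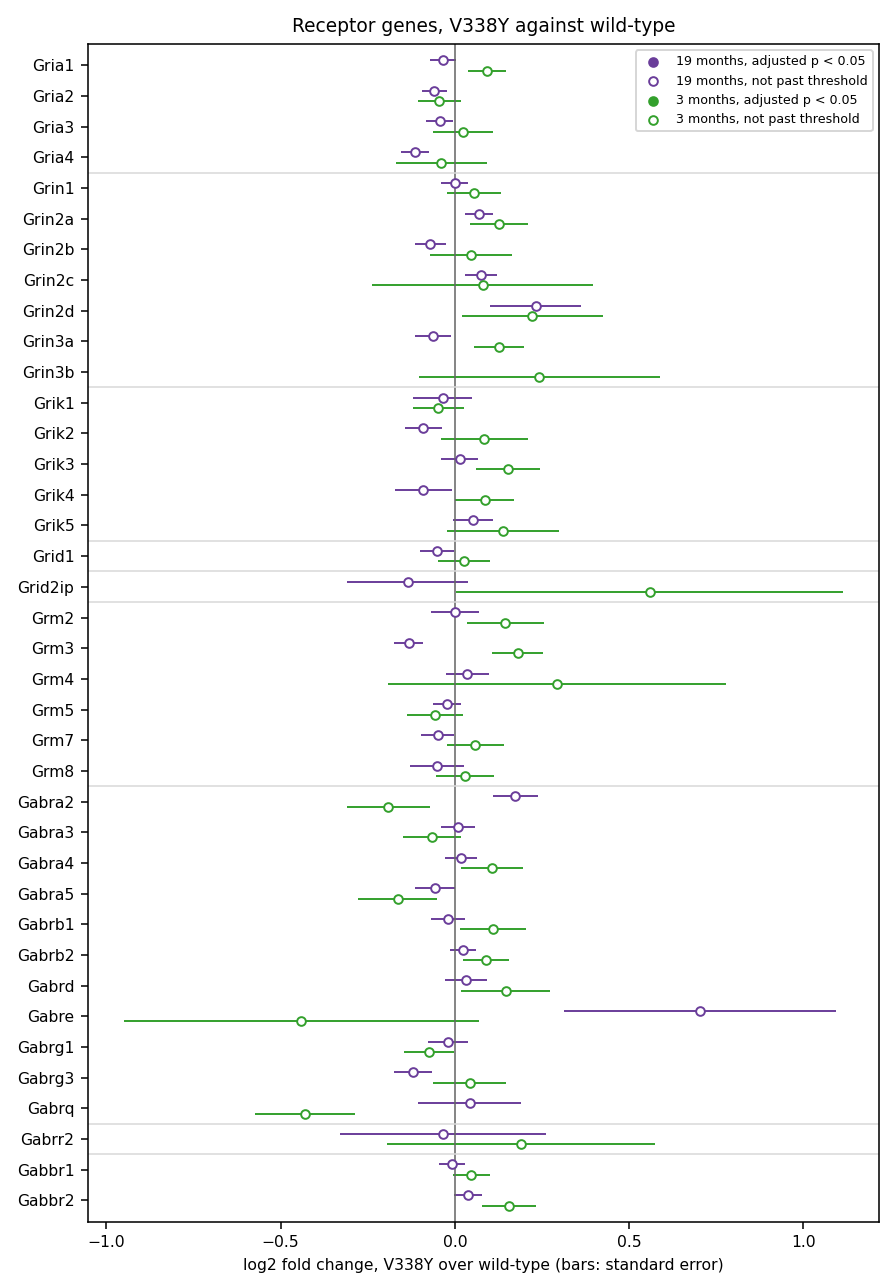
Log2 fold change (x axis, V338Y over wild-type) with its standard error for the receptor genes tested (y axis, grouped by family), at 19 months (purple) and 3 months (green), 4 mice per group. All points are open, since none passed an adjusted p of 0.05, and the bars are wider at 3 months, as for Grid2ip, Grm4 and Grin2c.

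The effect of age itself was compared between the genotypes as an interaction over all 16 mice. No receptor gene was called by edgeR or DESeq2 (0 of 38, beside 0.0535% of 16831 genes), and 3 had an unadjusted p under 0.05 (Grm3, Gabra2 and Gabrq) beside 10.2% of all genes. The smallest adjusted p was that of Grm3, whose log2 fold change with age, V338Y minus wild-type, was -0.31 ± 0.088 (SE, adjusted p = 0.238). A p that misses the threshold does not show that the rises were alike.

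Genes that work with the receptors moved in both directions, as did genes in general. Over all genes tested, 31.4% were higher and 31.5% lower at 19 months in wild-type mice, and 23.1% and 25.7% in V338Y mice. Among 17 receptor partners tested, 8 were higher and 6 lower at 19 months in wild-type mice, and 2 and 4 in V338Y mice. Among genes that passed the test, the largest changes in wild-type mice were those of Kctd8 (-1.14, adjusted p = 4.35e-10), an auxiliary subunit of GABA-B receptors, and Cacng5 (-0.63, adjusted p = 4.08e-07), of the AMPA receptor auxiliary family, on the low side, and of Shisa7 (0.96, adjusted p = 9.14e-13) and Kctd16 (0.58, adjusted p = 5.83e-07) on the high side. The largest among those that passed in V338Y mice were Kctd8 (-0.99, adjusted p = 0.000474), Cacng5 (-0.87, adjusted p = 0.000460), Kctd16 (0.52, adjusted p = 0.00461) and Gsg1l (0.37, adjusted p = 0.0296).

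Of 21 scaffold genes, 10 rose and 6 fell in wild-type mice, beside 31.4% and 31.5% of all genes. In V338Y mice 3 rose and 6 fell, beside 23.1% and 25.7% of all genes. Among the genes called, Homer3, a postsynaptic scaffold that is strong in Purkinje cells, had the largest fall (-2.14, adjusted p = 4.51e-10 in wild-type and -2.23, adjusted p = 0.0206 in V338Y mice). Pick1 followed in wild-type mice (-0.37, adjusted p = 3.81e-05) and Gphn, the anchor of inhibitory receptors, in V338Y mice (-0.36, adjusted p = 0.000228). Shank1 (1.04, adjusted p = 0.00594) and Dlgap2 (0.62, adjusted p = 5.15e-10) led the rises in wild-type mice, and Dlgap2 (0.39, adjusted p = 0.0351) and Homer2 (0.39, adjusted p = 0.00251) in V338Y mice.

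Of 14 genes of transmitter synthesis and transport, 6 rose and 4 fell in wild-type mice, beside 31.4% and 31.5% of all genes. In V338Y mice 4 rose and 4 fell, beside 23.1% and 25.7% of all genes. The glutamate transporters of astrocytes led the rises in wild-type mice, Slc1a2 with 1.33, adjusted p = 1.28e-15 and Slc1a3 with 0.75, adjusted p = 3.55e-15, and in V338Y mice Slc1a2 (0.92, adjusted p = 2.79e-05) and the GABA transporter Slc6a11 (0.55, adjusted p = 9.09e-05) did. Gad1, an enzyme that makes GABA, was lower, at -0.39, adjusted p = 4.37e-10 in wild-type and -0.51, adjusted p = 9.40e-06 in V338Y mice. Next were the vesicular GABA transporter Slc32a1 in wild-type (-0.38, adjusted p = 0.000191) and Gad2 in V338Y mice (-0.24, adjusted p = 0.00373). These moved with the interneuron markers, a list that holds Gad1 and Gad2, of which 6 of 8 fell in wild-type and 5 of 8 in V338Y mice.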

How the data were processed

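RNA of 16 mice in 4 groups of 4 was analysed, with genotype, age and mouse number taken from the labels. The authors deposited expected counts per gene, unnormalized. The paper describes RSEM with Ensembl annotation, whereas the submitters' processing notes list bcl2fastq 1.8.4, STAR 2.4.2a, featureCounts and GRCm38, so the tool behind the values is uncertain. The deposited values are whole numbers of at most 4 significant digits, and all 1495 of 10000 or more end in 0, so no further rounding was needed. Identifiers were matched to GENCODE M21 (GRCm38) for 37693 of 39179, including all 47 receptor genes, of which 5 and the ratio that needs them are not reported here, which also gave positions and exon lengths.

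Genes with at least 10 counts in 2 of 4 mice of a group were tested in each pairwise comparison with the robust quasi-likelihood test of edgeR 4.0.16 (R 4.3.3, TMM, Benjamini-Hochberg over all genes). The interaction used all 16 mice. DESeq2 1.42.0 was an alternative, beside other scalings, filters, a fit of all mice, a cerebellum score as covariate and leaving out each mouse. Standard errors are the log2 fold change over the root of the F statistic. CPM share 1 TMM scale. Ratios used two-sided exact permutation tests over 70 assignments, adjusted for the 12 tests planned.

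The receptor genes, marker lists and lists of partners were chosen with earlier results of these data known. Values by mouse are given for the reported genes among the 10 called genes of largest change without overlap and at least 50 normalized counts in each comparison of age, and for Grin2a, Grin2b, Gria1 to Gria4 and Gabra2 to Gabra5; other values were chosen after they were seen. Partners are named for the 2 largest changes each way. The steps were tested on simulated counts with 200 genes changed. No pair of mice in a group agreed within sampling noise. Nothing in the labels says how the mice were bred, so p-values measure the spread between these mice. The 300-base windows came from RefSeq, which held 32 of the 42 genes. Library size limits precision, and a count of 0 allows 3 counts.

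Hypothalamus, thalamus, striatum, cortical excitatory, oligodendrocyte and microglia markers were also listed. Over all genes tested, 31.4% were higher and 31.5% lower at 19 months in wild-type mice, and 23.1% and 25.7% in V338Y mice. In wild-type and V338Y mice, genes higher and lower at 19 months numbered 1 and 1 and then 0 and 0 of 5 for hypothalamus, 1 and 2 and then 0 and 1 of 5 for thalamus, 1 and 1 and then 0 and 3 of 7 for striatum, 3 and 3 in each of 8 for cortical excitatory neurons, 5 and 1 and then 4 and 0 of 7 for oligodendrocytes, and 6 and 0 in each of 6 for microglia.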

Additional observations from a re-analysis of the deposited data

Results flagged for a closer look

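Within groups of 4 mice, 6 values of 160 groups lay apart from the other 3 by a gap that exceeded, as a share of the range of the group, the 95% critical value of Dixon's ratio, and chance flags about 1 in 20 groups. Grm3 was at 144 CPM in 3-month V338Y mouse 14, above 119 to 120.5 CPM in the others. This is the library with the lowest cerebellum markers of the 8 mice of 3 months. Grin2d was at 12.6 CPM in 3-month V338Y mouse 15, above 7.05 to 7.31 CPM. Grin2a was at 147 CPM in 19-month wild-type mouse 12, below 158 to 159 CPM. Gabrb2 was at 225 CPM in 3-month wild-type mouse 9, below 241 to 242 CPM, and at 221 CPM in 19-month wild-type mouse 14, below 233 to 235 CPM. Gabrg3 was at 42.9 CPM in 19-month V338Y mouse 19, below 45.0 to 45.3 CPM.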

How the results depend on the processing

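No paired analysis was possible because the groups compared share at most 1 mouse number, and that number names different mice. The ages did not overlap in the cerebellum score in either genotype, and among the 3-month mice only mouse 14 came near the 19-month mice. As a covariate, that score changed the comparisons of age most, and in wild-type mice few genes could be called at all. With it 2 receptor genes were called, both higher and 0 lower, for wild-type and 8 for V338Y mice, 4 of them higher and 4 lower, and, among genes called without it, log2 fold changes reversed in wild-type mice for Gria3 (-0.35), Gria4 (0.84), Gabrd (1.02), Grin1 (-0.59), Grin2c (0.94), Grin3a (-0.12), Grid1 (-0.57), Grid2ip (2.04), Grik1 (0.0062), Grik2 (1.48), Grik3 (-1.23), Grik5 (-0.43), Grm2 (-1.81) and Grm4 (3.30), and in V338Y mice for Gabrd (0.072), Grik2 (0.13), Grm4 (0.51) and Grm7 (-0.10). Of these, Grm4 passed the threshold in wild-type mice (adjusted p = 0.00613). Among genes not called without it, Grin2c in V338Y mice turned from -0.61 to 0.87 and was called (adjusted p = 0.000243), and Grid2ip turned from -1.31 to 1.01. Without 1 mouse at a time, the number called lower in V338Y mice was 3 to 8, the total 11 to 20, and the number called between genotypes at 19 months 0 to 1 (Grm3, lower, without wild-type mouse 12). Without division by exon length, the difference in the Gria2 share with age in wild-type mice was -0.447 percentage points. Without 1 mouse at a time it was -0.036 to 0.42, and the Gria2 share differed between genotypes at 19 months by -0.23 to 0.16 percentage points, none past an exact permutation test. With library size alone, 16 genes were called lower in wild-type and 11 in V338Y mice. Other counts stayed within 1.5 times under DESeq2, other scalings, filters and the fit of all mice, but single calls were lost. Gabra5 in V338Y mice was not called with RLE size factors (adjusted p = 0.0663), without a filter beyond 1 count (0.0643) or with 10 counts required in every library (0.0547), and Grid2ip, Grik2 and Grm5 in wild-type mice were not called in the fit of all mice (0.302, 0.104 and 0.0755). Between genotypes at 19 months, 38.3% of all genes called were higher, and 57.7% with library size alone. Genes of few counts, such as Grin3b, Gabrr2 and Gabre, are limited by depth. Other causes of changed calls were not tested.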
